A study of Mus musculus with 4 samples.

Results

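The genes described here encode the transcriptional repressor GFI1B and the proteins through which it acts on histones. They were chosen by symbol, as the rows for Gfi1b, Kdm1a, Rcor1, Rcor3, Hdac1, Hdac2, Hdac3, Hmg20b, Gse1 and Phf21a. All 10 genes had a row, out of 9615 genes in the table. The readout was H3K9ac, the acetylated form of lysine 9 on histone H3, which is found at promoters and enhancers in use, measured by chromatin immunoprecipitation followed by sequencing (ChIP-seq) in leukaemic mouse bone marrow.

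Both H3K9ac libraries came from mice with 2 floxed copies of Gfi1b and the NUP98/HOXD13 transgene, a fusion gene that drives a myelodysplastic syndrome and acute myeloid leukaemia. The library named WT by the submitters carried no Mx-Cre, and the library named tg carried it. WT therefore means free of Cre, not free of the leukaemia transgene. Mx-Cre is a Cre recombinase under the interferon-inducible Mx1 promoter, which is active in blood-forming cells and in other tissues. Whether and when it was induced, the age of the mice and the number of mice behind a library are not stated in the labels. There were also 2 rabbit IgG control libraries, 1 for each genotype, which were not analysed here, so no value below has an antibody background subtracted. With 1 H3K9ac library per genotype no test between genotypes was possible: "higher" and "lower" compare these 2 libraries, without a replicate check.

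The values are log2 read counts per probe, scaled to 1000000 reads and averaged over the probes of a gene. A probe is a genomic interval in which the authors counted reads. Whole reads per probe could be worked out from the deposited means and standard deviations, and rest on totals of 309649 reads in WT and 163712 in tg. A gene with 1 probe held a median of 22 reads in WT and 11 in tg, and where no read was counted the level could still be up to 9.69 scaled reads in WT or 18.3 in tg (3 reads). No gene with 1 probe held fewer than 9 reads over both libraries. Such a gene with few WT reads therefore had a row only if its tg count was high, and the reverse holds for few tg reads. Every 95% interval below covers counting error only. In whole marrow, more cells that carry the mark and more of the mark per cell cannot be told apart.

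GFI1B is a zinc finger repressor needed for the erythroid and megakaryocytic lineages. Its N-terminal SNAG domain resembles the tail of histone H3 and binds LSD1, the lysine demethylase encoded by Kdm1a, which removes methyl groups from lysine 4 of histone H3. LSD1 is held on nucleosomes by the CoREST protein of Rcor1, which also binds the deacetylases HDAC1 and HDAC2. Rcor3 encodes a paralogue of this protein. The complex further contains the HMG-box protein BRAF35 (Hmg20b), BHC80 (Phf21a) and GSE1. HDACs remove acetyl groups such as that of H3K9ac. GFI1B is also known to bind its own promoter and repress its own gene, while GATA1 occupies the same promoter in erythroid cells.

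The upstream promoter of Gfi1b is shown because this gene differed most between the libraries and because it is a target of its own product, and that of Rcor1, the CoREST gene, for contrast. Each run is the 250 bases before a RefSeq start site, from RefSeq's GRCm38.p6 assembly, written 5′ to 3′ on the strand of the gene. Gfi1b lies on the minus strand (chr2:28621983-28622232) and Rcor1 on the plus strand (chr12:111039117-111039366). Capitals mark the GATA-factor motif (AGATAA or TGATAA) and the core of the GFI1 and GFI1B motif (AATCA), each searched on both strands.
Gfi1b: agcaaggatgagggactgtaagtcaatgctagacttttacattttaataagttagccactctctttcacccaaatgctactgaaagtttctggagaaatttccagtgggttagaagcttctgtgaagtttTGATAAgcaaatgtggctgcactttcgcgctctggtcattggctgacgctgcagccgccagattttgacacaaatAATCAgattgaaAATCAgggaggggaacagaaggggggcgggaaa
Rcor1: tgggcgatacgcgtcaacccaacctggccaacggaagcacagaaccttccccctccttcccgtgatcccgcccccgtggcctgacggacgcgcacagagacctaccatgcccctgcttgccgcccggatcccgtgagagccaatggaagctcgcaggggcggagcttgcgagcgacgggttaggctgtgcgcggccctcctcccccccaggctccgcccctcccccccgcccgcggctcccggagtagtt
The Gfi1b sequence held 1 GATA motif, TGATAA, beginning 120 bases before the start site, and 2 copies of AATCA, beginning 45 and 33 bases before it. None of these 3 matches overlapped. Of 32851 RefSeq promoters of this length, 16.6% held a GATA motif, 33.7% held AATCA, and 2.57% held a GATA motif with 2 or more AATCA. Among the promoters of genes with a row in the table, the shares were 9.19% for a GATA motif and 26.1% for AATCA. A match of these letters is not a measured binding site.

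RefSeq promoters were found for 8 of the 10 genes, with Hdac1 and Hdac3 unmatched. The 7 cofactor genes had 12 promoters among them, of which 0 held a GATA motif and 1, a second start of Phf21a, held AATCA once. The GC box GGGCGG was present in 58.8% of the promoters of genes with a row and 32.7% of all promoters. The Gfi1b promoter held 1 GC box, and 10 of these 12 cofactor promoters held at least 1. The 3 windows of Hmg20b among them overlap, so the 12 are not independent. The Gfi1b promoter had fewer G and C bases than those of the cofactors, apart from 1 start of Phf21a. It was 44.4% G and C with 5 CpG dinucleotides, below the 60.0% and 16 of the median promoter of genes in the table. Rcor1 had 70.4% and 25 CpGs, Kdm1a 59.2% and 21, and Rcor3 82.8% and 39. The second start of Phf21a had 30.8% and 0 CpGs. The table does not place its probes, so no H3K9ac value can be assigned to any of these promoters.

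Gfi1b (ENSMUSG00000026815, chromosome 2, 28609450 to 28621982, GRCm38) carried little H3K9ac in WT and much in tg. Its deposited log2 level was 3.17 ± 0.63 in WT and 7.00 ± 1.19 in tg (SD over 4 probes), a log2 difference of 3.84. Sorted by height, its probes had 2, 2, 3 and 5 reads without Mx-Cre against 8, 18, 23 and 59 with it. The probe sets did not overlap, since the tallest WT probe reached 16.1 scaled reads and the lowest tg probe 48.9. Summed over probes the 12 WT and 108 tg reads gave a 17.0-fold higher scaled level in tg (9.36 to 34.0).

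The Gfi1b difference was spread over its probes. The tallest probe held 41.7% of the WT reads (exact binomial 95% interval 15.2 to 72.3) and 54.6% of the tg reads (44.8 to 64.2). Without it 7 and 49 reads remained, 13.2-fold higher in tg (5.97 to 34.6), and the tallest probes alone differed 22.3-fold (9.04 to 71.3). Probes are not identified between libraries, so tallest with tallest is a pairing by rank. Among the 117 genes with 4 probes, the level per probe of Gfi1b exceeded that of 3.42% in WT and 97.4% in tg. Of all 9615 genes, 132 had a larger log2 ratio. Cre should remove the floxed part of the gene, but with probe positions unknown these reads do not show whether it was lost.

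**Figure D1:**
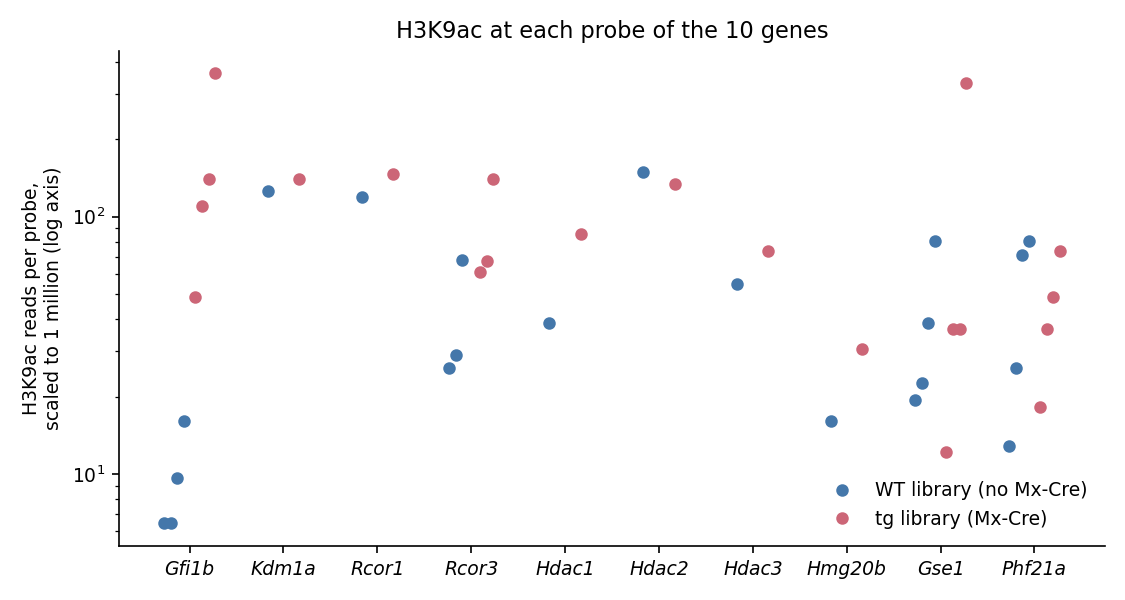
Scaled H3K9ac reads at each probe (log axis) of the 10 genes, blue for the WT and red for the tg library; each point is 1 probe, and probes are placed in order of height. The 4 tg probes of Gfi1b, from 48.9 scaled reads upward, all lie above its tallest WT probe at 16.1, while for Gse1 a single tg probe stands above all others.

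Kdm1a, the gene of the demethylase LSD1 (chromosome 4, 136550540 to 136602723), was marked at a similar level in both libraries. Its 1 probe held 39 reads in WT and 23 in tg, or 126 and 140 scaled reads, a ratio of 1.12 (0.636 to 1.91). The interval includes 1 and stays below 2, so a doubling in tg was outside what counting error allows.

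The CoREST genes Rcor1 and Rcor3 encode paralogues that bind LSD1. Rcor1 (chromosome 12, 111039351 to 111115901) had 37 and 24 reads, or 119 and 147 scaled reads, a ratio of 1.23 (0.702 to 2.11). Rcor3 (chromosome 1, 192098656 to 192138010) was higher in tg: its 3 probes held 8, 9 and 21 reads in WT and 10, 11 and 23 in tg, 2.19-fold by summed reads (1.39 to 3.47). Its log2 level was 5.21 ± 0.76 in WT and 6.38 ± 0.66 in tg (SD over probes). Paired by rank, the tallest probes of Rcor3 differed 2.07-fold (1.10 to 3.94) and the others together 2.34-fold (1.17 to 4.72). The scaled values of the probe sets overlapped, with the tallest WT probe at 67.8 and the lowest tg probe at 61.1. Since probes are not identified between libraries, these values do not show that each probe was higher. The fold of Rcor3 was 1.78 times that of Rcor1 with an interval of 0.865 to 3.70, so a difference between these paralogues was not detectable at this depth.

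The class I deacetylase genes were covered by 1 probe each. Hdac1 (chromosome 4, 129516104 to 129542713) held 12 WT and 14 tg reads, or 38.8 and 85.5 scaled reads, 2.21-fold higher with an interval that includes 1 (0.947 to 5.22). Hdac2 (chromosome 10, 36974544 to 37001889), which encodes the partner of HDAC1 in the same complexes, had 46 and 22 reads, or 149 and 134 scaled reads, a ratio of 0.905 (0.518 to 1.53). It was the only one of the 10 genes whose deposited log2 value was lower in tg, by 0.14. Hdac3, the catalytic subunit of the NCoR and SMRT complexes (chromosome 18, 37935844 to 37954988), had 17 and 12 reads, or 54.9 and 73.3 scaled reads, a ratio of 1.34 (0.582 to 2.97). Its values are identical to those of Rell2, which begins 90 bases beyond it, so this probe belongs to both genes. The fold of Hdac1 was 2.41 times that of Hdac2 (0.875 to 6.81) and 1.64 times that of Hdac3 (0.500 to 5.50), neither beyond counting error.

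Neither Hmg20b nor Phf21a differed between the libraries beyond counting error. Hmg20b (chromosome 10, 81346048 to 81350480) had 5 reads in each library, a scaled ratio of 1.89 whose interval of 0.435 to 8.22 holds a 2-fold difference either way. Phf21a, the gene of the subunit that reads unmethylated lysine 4 of histone H3 (chromosome 2, 92093117 to 92364666), had 4 probes with 4, 8, 22 and 25 reads in WT and 3, 6, 8 and 12 in tg. Its log2 difference was 0.08 and its ratio of summed reads 0.930 (0.575 to 1.47), and its probe sets overlapped.

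Gse1 (chromosome 8, 120488866 to 120581390), a coiled-coil subunit of the complex, had a single tg probe that stood above all its others. Its WT probes held 6, 7, 12 and 25 reads and its tg probes 2, 6, 6 and 54. The tallest probe thus took 50.0% of the WT reads (35.5 to 64.5) and 79.4% of the tg reads (67.9 to 88.3). By summed reads the gene was 2.57-fold higher in tg (1.76 to 3.78), and by the tallest probes 4.09-fold (2.50 to 6.85), whereas the other 3 probes together had a ratio of 1.06 (0.509 to 2.12). The deposited log2 difference, which weighs probes alike, was 0.50. RefSeq starts a longer Gse1 at 120228501, and reads before the table's start at 120488866 are not part of this row.

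**Figure D2:**
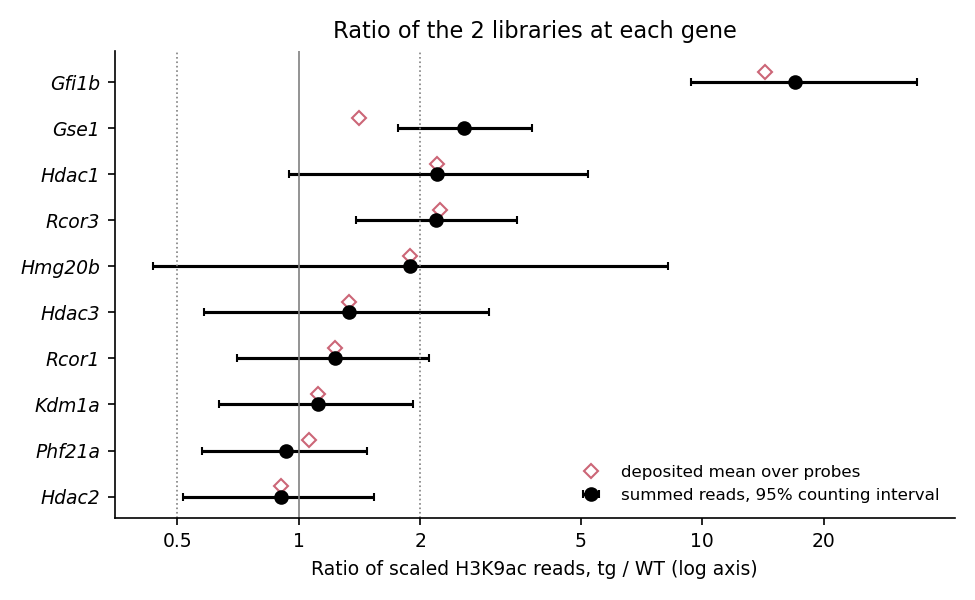
Ratio of scaled H3K9ac reads in tg over WT for the 10 genes (log axis): filled circles with bars are summed reads with the exact 95% counting interval, open diamonds the deposited mean over probes; lines mark ratios of 0.5, 1 and 2. The intervals of Gfi1b, Gse1 and Rcor3 lie above 1, and circle and diamond are far apart for Gse1, at 2.57 and 1.41.

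By the deposited log2 values 3 of the 10 genes, Gfi1b, Rcor3 and Hdac1, were at least 2-fold higher with Mx-Cre, and 0 were 2-fold lower. Of all genes 16.5% were 2-fold higher and 15.8% 2-fold lower. With summed reads Gse1 joined them, giving 4 of 10 higher and 0 lower, against 14.8% and 15.4% of all genes with recovered reads. The counting interval lay above 1 for 3 of the 10, Gfi1b, Rcor3 and Gse1, and below 1 for 0, where 12.8% and 12.7% of all genes did so. Of the 9 cofactors, 8 had a log2 ratio above 0, as did 51.8% of all genes, and their median was 0.42 beside 0.05 over all genes (SD over genes 1.27). For 7 of the 9 the interval included 1, and for 4 of them, Rcor1, Hdac1, Hdac3 and Hmg20b, it also included 2.

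Gfi1b differed from its cofactors by more than counting error. In 14 comparisons between pairs of these genes, the fold of Gfi1b was 6.56 times that of Gse1 (3.17 to 14.6), 14.9 times that of Kdm1a (6.52 to 36.6) and 18.4 times that of Hdac2 (8.09 to 44.9). Against all 9 cofactors the exact conditional interval lay above 1, with the lowest end, 1.75, against Hmg20b. Of the 5 other pairs compared, only Gse1 against Phf21a had an interval that left out 1 (2.75 times, 1.499 to 5.13). These intervals hold for each pair alone and are not adjusted over the 14.

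**Figure D3:**
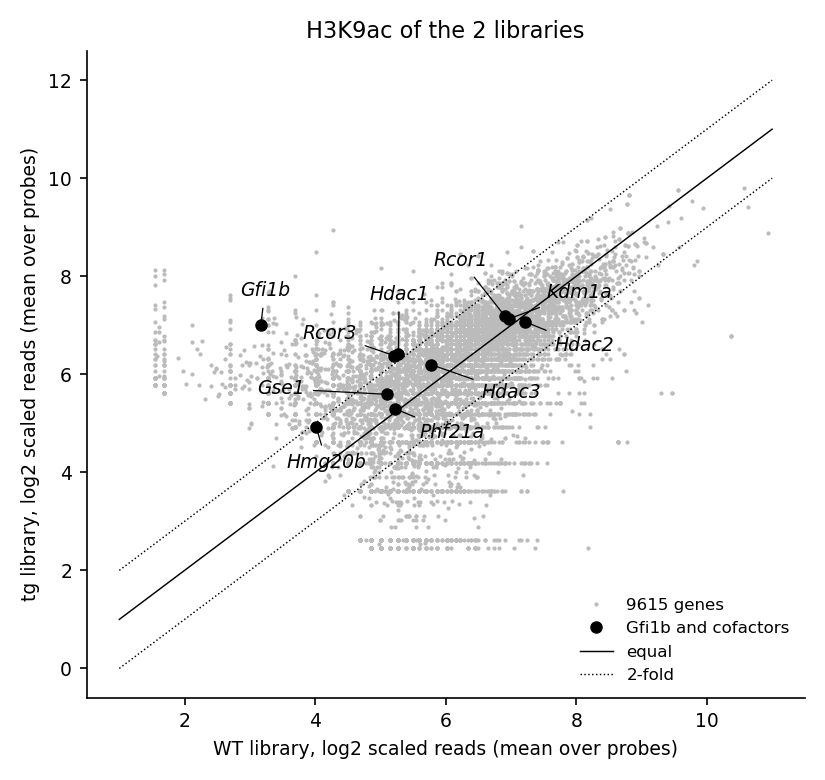
Deposited log2 H3K9ac levels of all 9615 genes (grey) and of the 10 genes (black, named) in the WT (x axis) and tg library (y axis), with lines at equality and at 2-fold. Gfi1b, at 3.17 and 7.00, stands far above the 2-fold line, while Kdm1a, Rcor1 and Hdac2 lie together near equality.

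Among genes with 4 probes outside the cofactors, and with unnamed gene models passed over, Zfpm1 was most like Gfi1b by distance between the pairs of log2 levels. Zfpm1 encodes FOG1, the cofactor of GATA1. Its log2 levels of 3.36 and 6.87 lay 0.23 from those of Gfi1b. Its probes held 1, 2, 3 and 17 reads in WT and 8, 10, 21 and 80 in tg, so 1 WT probe was already marked. The next were Spata5 (3.52 and 6.49), Klf3, a Krüppel-like factor gene (3.56 and 6.38), Metap2 (3.33 and 6.23) and Ccdc88c (3.61 and 6.22). Only 2 libraries define this likeness. Of the 117 genes with 4 probes 3 had a larger log2 ratio than Gfi1b, Phyhip (4.79), Sox6 (4.42), a transcription factor gene of erythroid maturation, and Mgll (4.35).

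The difference at Gfi1b did not extend to its neighbour in the table. Within 200 kb the table held only Tsc1, a tumour suppressor gene that begins 19.2 kb away, with 16 reads in WT and 6 in tg, a ratio of 0.709 (0.227 to 1.91). RefSeq places the protein-coding genes Ralgds, Cel, Gtf3c5, Spaca9 and Ak8 within 100 kb as well, and none of these had a row. The long non-coding RNA gene Gm52548 (28619670 to 28622203) overlaps the start of Gfi1b, and Gm22675 encodes a small nuclear RNA. Neither had a row. With probe positions unknown, reads of Gfi1b may also fall in Gm52548. Next to Rcor3, Traf5 at a distance of 6.10 kb went the other way, 2.42-fold lower in tg on 32 and 7 reads (1.05 to 6.49). Beyond Gse1, the monocyte transcription factor gene Irf8 at 155 kb was 7.42-fold lower (5.09 to 11.2), against the higher tallest probe of Gse1. Over the 50 neighbours of the 10 genes that do not share all values with them, 9 were 2-fold higher and 6 lower, with a median log2 ratio of 0.07. The shares of all genes beyond this rule were 16.5% higher and 15.8% lower, so the neighbours were not set apart from them. Some neighbours have the same values as each other, such as Cox4nb and Cox4i1, so the 50 are not independent.

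**Figure D4:**
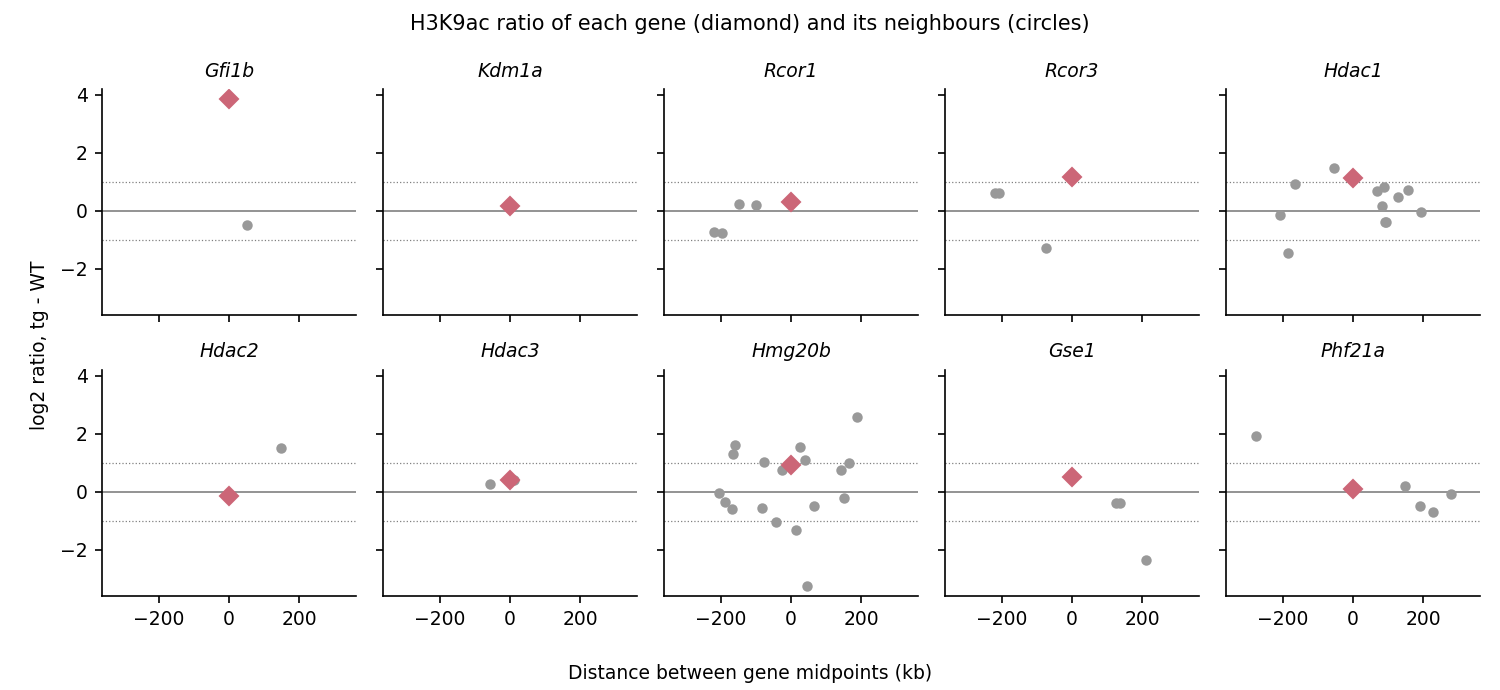
Log2 ratio of H3K9ac (tg minus WT) of each gene (red diamond) and of the genes within 200 kb of it (grey circles). The x axis is the distance between gene midpoints in kb. The long gene model Gm20388, which spans Gse1, and Ambra1, a neighbour of Phf21a, lie beyond this axis and are not drawn. Gfi1b at 3.84 stands above its neighbour Tsc1 at -0.50, and the neighbours of Hmg20b lie on both sides of 0.

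Other partners of LSD1, CoREST and GFI1 were mostly near equality. Of 18 listed genes 11 had a row, 1 was at least 2-fold higher in tg and 1 lower, with a median log2 ratio of 0.00. By the same rule 16.5% of all genes were higher and 15.8% lower. The higher one was Zmym3, a zinc finger subunit of the LSD1 complex, on 1 read in WT and 8 in tg (15.1-fold, 2.03 to 671). Genes with 1 probe held at least 9 reads over both libraries, so with 1 WT read this row required a high tg count. The lower one was Zfp217, a zinc finger repressor that binds LSD1 and CoREST, on 176 and 39 reads (2.39-fold, 1.68 to 3.47). Kdm1b, which encodes LSD2, had a ratio of 0.630 (0.205 to 1.66), with values that the table also gives for Tpmt. Gfi1, the paralogue of Gfi1b, and Rcor2 had no row.

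HDAC1 and HDAC2 also act in the NuRD and SIN3 complexes, and HDAC3 in the NCoR complex. Of 11 NuRD genes with a row, 2 were 2-fold higher and 2 lower (median -0.13), where 16.5% and 15.8% of all genes were. Chd3, a remodeller ATPase, was higher on 3 and 21 reads (13.2-fold, 3.95 to 69.3), with values that the table also gives for Gm17305. With 3 WT reads on 1 probe, Chd3 had a row only through its tg reads. Mbd2, which binds methylated DNA, was higher too, by a log2 ratio of 2.05 in the deposited means and 2.02-fold by summed reads (1.31 to 3.12). Mbd3, its paralogue, was 2.24-fold lower (1.21 to 4.46), and Rbbp7, a histone-binding subunit shared with SIN3, had 22 and 5 reads with an interval that includes 1 (2.33-fold lower, 0.860 to 7.86). Of 13 SIN3 genes 0 were higher and 2 lower, Rbbp7 and Arid4a (2.01-fold lower, 1.28 to 3.26), with a median of -0.15. Of 6 NCoR genes 0 were higher and 1 was lower, Tbl1x on 23 and 5 reads (2.43-fold, 0.904 to 8.19), while the scaffold gene Ncor1 had 126 and 83 reads (ratio 1.25, 0.933 to 1.66), with values also given for Pigl.

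Genes known to control Gfi1b were found in both directions. Of 13 with a row, 5 were 2-fold higher and 3 lower (median 0.14), beside 16.5% and 15.8% of all genes. Besides Zfpm1 the higher ones were Gata1, the chief erythroid transcription factor gene (1 and 13 reads), Tal1 (log2 ratio 3.59), Lmo2 (3.08) and Ldb1 (1.71), which form a complex with GATA1. With 1 WT read on 1 probe, Gata1 had a row only through its tg reads. The lower ones were the ETS factor genes Fli1 (5.23-fold, 2.73 to 11.3) and Erg (3.22-fold, 2.36 to 4.46) and the progenitor factor gene Myb (2.42-fold, 1.61 to 3.76). Gata2 had a ratio of 1.22 (0.682 to 2.15), and Runx1 a log2 ratio of -0.05.

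Known target genes of GFI1 and GFI1B were found in both directions. Of 12 with a row, 3 were 2-fold higher and 4 lower (all genes 16.5% and 15.8%), with a median log2 ratio of 0.03. With reads added over a gene's probes the median was -0.56. By this measure 3 genes passed the 2-fold line upwards and 5 downwards, beside 14.8% and 15.4% of all genes with recovered reads. The counting interval lay above 1 for 3 genes and below 1 for 5, where 12.8% and 12.7% of all genes did so. The survival gene Bcl2l1 was higher by a log2 ratio of 2.23 in the deposited means and 2.87-fold by summed reads (1.76 to 4.76). The homeobox gene Hoxa9 differed in direction between the scales: its log2 ratio in the deposited means was 0.87, while its 907 reads in WT and 327 in tg gave a ratio of 0.682 (0.599 to 0.775). Meis1, a homeobox gene of leukaemic self-renewal, had 2 and 7 reads (6.62-fold, 1.26 to 65.3), and the macrophage receptor gene Csf1r 4 and 9 (4.26-fold, 1.19 to 18.9). With so few WT reads on 1 probe each, Meis1 and Csf1r had a row only through their tg reads. Spi1, the PU.1 gene, listed in the table as Sfpi1, was 5.20-fold lower (2.87 to 10.3), and the homeobox gene Hhex was 2.68-fold lower (1.47 to 5.30). Myb, on both lists, and Kit, with an interval that includes 1 (2.11-fold, 0.842 to 6.33), were the other lower genes.

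Cell type markers differed between the same libraries. Of 12 erythroid markers with a row (18 listed), 11 were 2-fold or more higher in tg and 0 lower. The shares of all genes, for this and the other marker lists, were 16.5% and 15.8%. The erythroid median log2 ratio was 3.60, near the 3.84 of Gfi1b, and their summed level was 523 scaled reads in WT and 2816 in tg. The erythropoietin receptor gene Epor, Rhag and Alas2 were at 0 reads in WT and at 28, 16 and 10 in tg. With 1 probe each, they had a row only through tg, so their direction was fixed by having a row. The same holds for Gata1 and Hba-a1, at 1 and 4 WT reads. Of the megakaryocyte list, the other lineage that depends on GFI1B, 3 of 9 genes had a row and 0 were higher. Their summed level was 352 scaled reads in WT and 104 in tg. Most of it was Plek, with 83 reads in WT and 10 in tg, so this sum mainly describes 1 gene and not the lineage. Selp had 10 and 0 reads, and Vwf 16 and 7, a ratio of 0.827 (0.288 to 2.13). The 3 neutrophil markers with a row, of 11 listed, were all lower (summed level 226 and 36.6), among them the myeloperoxidase gene Mpo with 31 WT reads and 1 tg read. Of 6 monocyte markers, of 7 listed, 3 were lower and 1 higher (2073 and 458). The higher one, Csf1r, and a lower one, Spi1, are also on the target list. Gata1 is both an erythroid marker and a regulator of Gfi1b, so counts of these lists are not independent. B cell and T cell markers had 2 rows each, of 7 and 6 listed, with 0 genes beyond 2-fold. Their summed levels were 149 and 220, and 51.7 and 61.1. The T cell rows were Cd3d and Cd3e, and Cd79a and Lck, also listed, had no row. Both B cell rows, Pax5 and Vpreb1, and the neutrophil row Prtn3 have values that the table also gives for another gene, so these summed levels are not of the markers alone. The part of these markers in the Gfi1b, Rcor3, Hdac1 and Gse1 values was not tested.

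**Figure D5:**
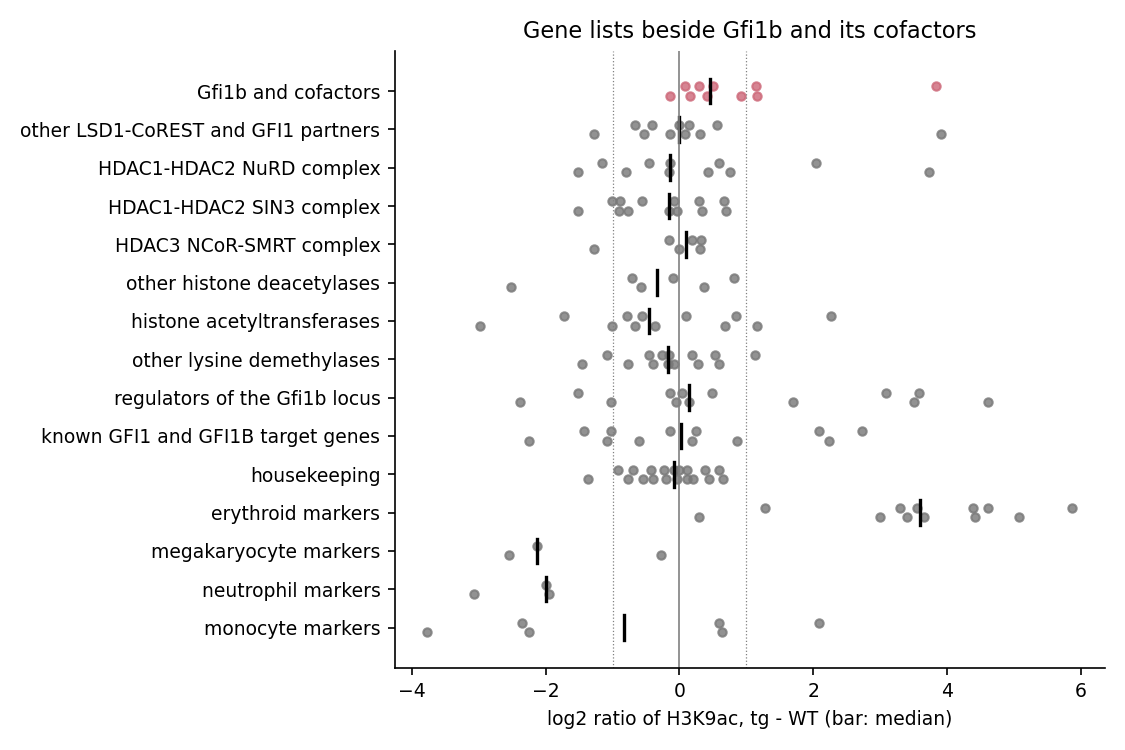
Log2 ratio of H3K9ac (tg minus WT) of each gene with a row, by list, with a bar at the median; Gfi1b and cofactors are red, and lists with under 3 genes with a row are not drawn. The cofactors lie between -0.14 and 1.17, and Gfi1b at 3.84 lies among the erythroid markers, whose median is 3.60.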

How the data were processed

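The authors deposited 1 table with log2 values, per the file headers: means and standard deviations over the probes of each Ensembl gene in the 2 H3K9ac libraries, matched to samples by the library codes in the column names. The submitters' processing notes name BWA, SAMtools, FastQC, CASAVA 1.8.2, mm10 and GRCm38. Neither probe placement nor duplicate removal is given in the sources used here. Linear values of the 7423 genes with 1 probe were whole multiples of 1 step (3.23 in WT, 6.11 in tg) in 100% of cases within 0.01 of a read, with 0 reads entered as 0.9. Reads per probe were solved for genes with 1 to 4 probes (9492 genes, 98.7%) where exactly 1 set matched mean and standard deviation. Each gene with 1 probe held at least 9 reads over both libraries.

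Log2 ratios are differences of the deposited values. Folds use summed reads scaled by the totals, with exact conditional (Clopper-Pearson) 95% intervals, and pairs of genes the conditional odds ratio (SciPy 1.17.1, Python 3.11.15). Amplified reads with no molecular identifier may repeat 1 molecule, so intervals cover counting error only. Calling a gene at 2-fold is a matter of size alone. The solving of reads and the intervals were tested on simulated data. Listed genes were matched by symbol, or by an older symbol in RefSeq's GRCm38.p6 table. All 10 genes are named, and from each other list up to 4 with the largest ratio beyond 2-fold, or the 2 with the highest WT level where under 2 passed. For Gfi1b, the 5 nearest genes outside the 10 are named, with unnamed gene models passed over and genes of identical values taken once. Others, the neighbours, the 200 kb window and the motifs were chosen after values were seen. The genes and lists were chosen with earlier results of these data known.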

Additional observations from a re-analysis of the deposited data

How the results depend on the processing

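The log2 ratio of Gfi1b ranged from 3.46 (1 read added to every probe) to 4.48 (tallest probe only) over the alternatives. The count of the 10 genes at least 2-fold higher in tg was 3 with the deposited values, after centring on the median of all genes or of housekeeping genes and with 1 read added. It was 4 with summed reads, where Gse1 joined, and 4 with a 1.5-fold rule, where Hmg20b joined on 5 reads in each library. With a 3-fold rule it was 1, Gfi1b. A filter on level is no check of this count, since Gfi1b and Hdac1 pass the median level only through tg. The count of lower genes was 0 in each. Gse1 moved from 0.50 to 1.36 with summed reads and 2.03 with its tallest probe, and to -0.02 without it. The sign of Phf21a, near 0, turned with summed reads (-0.11) and its tallest probe (-0.14). With a Wilson interval the lower end for Hdac1 passed 1 (1.04). Of 96 recomputed list counts 20 moved by over 1.5 times, most of them with the filter on level, which drops genes. The count of higher regulators of Gfi1b fell from 5 to 2 with summed reads, since Tal1, Lmo2 and Ldb1, with 6 probes, have no recovered reads. Among 46 list medians 6 changed sign. No paired analysis was possible because each group has 1 library. Depth limits Hmg20b, Hdac1 and Hdac3 most, with 5 to 17 reads per library.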

Other observations

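Genes of histone acetyltransferases, and of deacetylases and lysine demethylases not listed with GFI1B, were also looked up. Of all genes 16.5% were 2-fold higher and 15.8% lower, the shares to set beside these lists. Of 12 histone acetyltransferase genes, 2 were 2-fold higher with Mx-Cre and 3 lower. Their median log2 ratio was -0.46, with nearly equal summed levels (1650 and 1649 scaled reads). Kat2b, which encodes PCAF, an acetyltransferase of H3K9, was 2.95-fold higher (1.74 to 5.09). Crebbp, the CBP gene, had a log2 ratio of 2.26 but a ratio of summed reads of 1.47 (1.00 to 2.14). Hat1, an acetyltransferase of new histones, had 30 WT and 2 tg reads (7.93-fold lower, 2.01 to 68.5), and Taf1 25 and 4 (3.30-fold lower, 1.14 to 13.1). Ep300, the p300 gene, had a ratio of 1.07 (0.791 to 1.45), with values that the table also gives for another gene.

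Of 6 other deacetylase genes with a row, 0 were 2-fold higher and 1 was lower, Hdac7, a class IIa enzyme, on 46 and 5 reads (4.86-fold, 1.94 to 15.7). Of 14 other lysine demethylase genes, 1 was higher and 2 were lower (median -0.16). Kdm6a, the UTX gene, had a log2 ratio of 1.13 and a ratio of summed reads of 1.91 (1.40 to 2.61). Kdm2b, a CpG-binding subunit of a Polycomb complex, was 2.20-fold lower (1.48 to 3.37), and Kdm4b had 12 and 3 reads with an interval that includes 1 (2.11-fold lower, 0.571 to 11.7).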
